A study of Mus musculus with 4 samples.

Results

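Long noncoding RNAs (lncRNAs) are transcripts that are made and often spliced like messenger RNA but are not translated. Many start beside a coding gene and run the other way, so that both transcripts share 1 promoter region. Others have roles of their own, as scaffolds of nuclear bodies, as hosts of small nucleolar RNAs (snoRNAs) in their introns, or as regulators of a neighbouring gene. ATF4 is a basic leucine zipper factor of the amino acid and stress response, and with C/EBP partners it binds a composite element. The binding sites of ATF4 were mapped in mouse regulatory T cells, enriched as CD4+CD25+ cells, by ChIP-seq, in which DNA bound to a protein is pulled down with an antibody and sequenced. The series holds 2 ATF4 immunoprecipitates and 2 inputs, which are chromatin taken without the pull-down. The samples are labelled as spleen, and the series' design adds lymph nodes. No genotype, strain, age, sex or treatment is given in the labels, and whether the replicates came from separate mice is not stated.

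A single list of 4544 peaks, placed on build mm10, was deposited, and it holds no values per sample. All fold enrichments and −log10 q values are therefore the authors' own, without replicate error, and the read depth is unknown. The peaks described here are those that the deposited annotation places within 1 kb of the start of a noncoding RefSeq transcript (curated NR_ or predicted XR_). Of 464 such peaks, 37 were left out because their symbols name microRNA, snRNA, snoRNA or tRNA genes, which leaves 427 of the 4544 peaks, at 408 gene symbols. They are compared below with the 2594 peaks that lie within 1 kb of the start of a coding transcript. No test was made, because peaks of 1 list are not replicates. Intervals are exact Clopper-Pearson intervals at 95% and cover counting error only.

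The label of long noncoding transcripts held for most of these peaks but not for all. In a RefSeq gene table, 254 of the 427 peaks, at 235 symbols, belonged to lncRNA genes. Another 120 stood at protein-coding genes, where the nearest start happened to be that of a noncoding isoform. A further 28 belonged to small nuclear RNA (snRNA) genes that carry Gm or LOC symbols, which the symbol filter does not catch. The other 25 were 13 transcribed pseudogenes, 5 rRNA genes, 4 snoRNA genes and 1 each of a miRNA, an scRNA and a misc_RNA gene. At the distance limit, the members farthest from their start were at Gm30211, Gm30369 and Gm39760, 997, 989 and 989 bp away with fold enrichments of 4.74, 3.45 and 3.83. Just outside it lay Erdr1, Gm40773 and Hnrnpu, at 1005, 1010 and 1014 bp, with 2.57, 2.93 and 2.43.

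The promoter sequences of 4 lncRNA genes carry the motif results described further below. These are the RefSeq windows of build GRCm38.p6 from 250 bases before to 50 bases after the start of the lncRNA gene, on the strand of the gene. Capitals mark matches to TGATGNAA, the core of the composite element of C/EBP and ATF factors, or to TGACGTCA, the palindromic cAMP response element. The first pair is shown because the composite element lies beside the summit of a strong peak, and the second pair because the cAMP response element lies in the promoter of an lncRNA that faces a coding gene.
Gm38424 (chr5:31596693-31596992, plus strand): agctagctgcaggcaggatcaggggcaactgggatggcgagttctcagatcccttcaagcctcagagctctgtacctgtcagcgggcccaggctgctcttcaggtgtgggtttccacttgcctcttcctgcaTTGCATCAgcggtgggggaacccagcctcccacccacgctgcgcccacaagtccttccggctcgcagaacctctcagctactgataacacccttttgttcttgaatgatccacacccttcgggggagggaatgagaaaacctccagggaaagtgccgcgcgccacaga
Gm36111 (chr11:119191701-119192000, plus strand): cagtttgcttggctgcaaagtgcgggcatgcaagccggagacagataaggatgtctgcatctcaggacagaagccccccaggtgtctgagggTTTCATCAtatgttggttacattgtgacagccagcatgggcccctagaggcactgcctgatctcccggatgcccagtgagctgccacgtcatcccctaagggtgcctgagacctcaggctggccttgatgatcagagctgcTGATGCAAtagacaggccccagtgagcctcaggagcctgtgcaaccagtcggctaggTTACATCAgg
Gas5 (chr1:161034916-161035215, plus strand): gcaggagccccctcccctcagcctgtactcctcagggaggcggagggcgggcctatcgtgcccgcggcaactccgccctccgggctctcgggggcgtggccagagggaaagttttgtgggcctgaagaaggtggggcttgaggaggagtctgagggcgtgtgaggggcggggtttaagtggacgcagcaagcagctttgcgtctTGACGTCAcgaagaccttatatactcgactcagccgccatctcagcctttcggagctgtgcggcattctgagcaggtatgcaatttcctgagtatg
6030443J06Rik (chr5:22550163-22550462, plus strand): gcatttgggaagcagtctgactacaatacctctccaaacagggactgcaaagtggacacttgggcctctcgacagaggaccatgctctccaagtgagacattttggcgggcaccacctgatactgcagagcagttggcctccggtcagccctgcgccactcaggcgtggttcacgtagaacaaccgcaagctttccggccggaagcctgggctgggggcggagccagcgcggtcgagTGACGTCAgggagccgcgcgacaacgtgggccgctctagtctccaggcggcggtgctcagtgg

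Peaks at lncRNA starts were of about the strength of those at coding starts. The median fold enrichment was 3.25 over the 254 peaks of lncRNA genes (quartiles 2.70 and 4.04) and 3.16 over the 2594 peaks of coding transcripts (quartiles 2.64 and 3.96), with 3.30 over all 4544 peaks. The median −log10 q was 6.63 at lncRNA genes and 6.64 at coding transcripts, and it was at least 3 in 83.5% of lncRNA peaks, 82.6% of coding transcript peaks and 76.9% of all peaks. Among the 455 strongest peaks of the list, those with a fold enrichment of at least 5.34, stood 33 of the 254 lncRNA peaks, or 12.99% (9.11 to 17.8), beside 9.44% of coding transcript peaks and 10.0% of all peaks. The 2 intervals overlap, since that of coding transcripts runs from 8.35% to 10.6%.

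Over all 427 peaks the share among the strongest was 15.2% (11.9 to 18.99), and it moved with the snRNA genes. Of the 28 snRNA peaks, 24 were among the 455 strongest. Their fold enrichments had a median of 9.36, and their widths one of 781 bp. Gm22068, Gm22513 and Gm22634, which had the highest −log10 q among the snRNA peaks, had fold enrichments of 20.4, 19.6 and 16.5. These genes have near-identical copies, and the part that reads shared between copies have in their strength was not tested. Without the snRNA peaks the share was 10.3% (7.48 to 13.7), close to the background of 10.0%.

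Peaks at coding symbols were the weakest of the larger classes. Their median fold enrichment was 3.03 over 120 peaks (quartiles 2.49 and 3.63), and 4 of them, or 3.33% (0.916 to 8.31), were among the 455 strongest. The 4 were Arrdc3, which encodes an alpha-arrestin, at 14.9, Nabp1, which encodes a single-stranded DNA binding protein, at 7.02, the transporter gene Slc22a15 at 6.63 and the BCL6 corepressor gene Bcor at 5.92. Next came the ribosome biogenesis GTPase gene Lsg1 and the cyclin G1 gene Ccng1 at 4.90 each, Mllt10 at 4.84 and Fhl3 at 4.83. The Arrdc3 peak overlapped the start of its noncoding transcript (chromosome 13, 80883174 to 80883651, mm10), and 2 other peaks of the gene, at 3.32 and 3.52, were assigned to a coding transcript. In all, 18 of the 120 genes also had a promoter peak assigned to a coding transcript. For 74 of the 120, the noncoding start lay within 100 bp of a start that the RefSeq promoter table gives for the gene, and 24 of the other 46 had no window in that table.

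**Figure D1:**
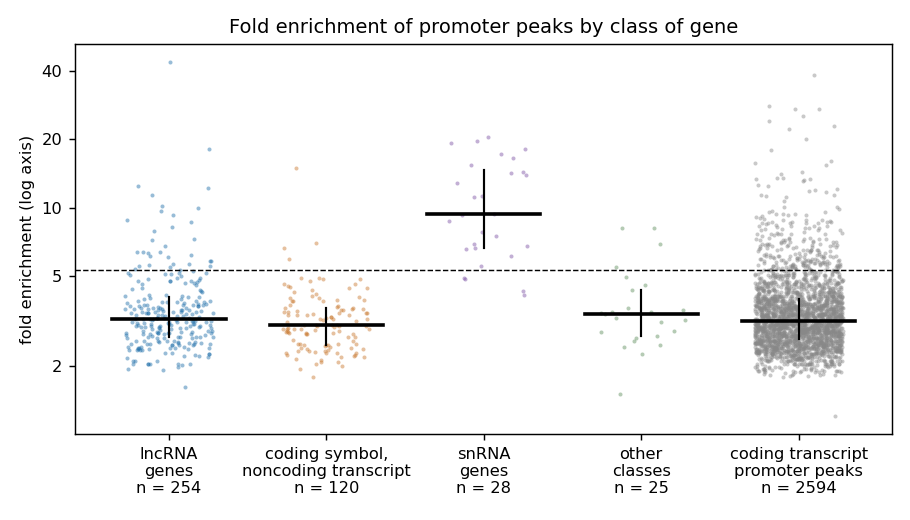
Fold enrichment (log axis) of each promoter peak within 1 kb of a start, by class of the assigned gene. Points are peaks, thick lines medians, thin lines quartiles, and the dashed line marks 5.34, the lower limit of the 455 strongest peaks. The medians of 3.25 at lncRNA genes and 3.16 at coding transcripts lie side by side, and the snRNA genes stand apart at 9.36.

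The strongest lncRNA peaks were few. Gm26812 had the strongest peak of the whole list, at 43.8 (chromosome 8, 121850877 to 121851473), with its summit at -658 bp from the assigned start, where negative values are upstream. It lay 6.975 kb from the span of the nearest coding gene, Gm42048, and 21.3 kb from that of Klhdc4. The span of the amino acid transporter gene Slc7a5 was farther, at 29.7 kb. Klhdc4 and Slc7a5 each had at least 1 peak of their own, and Gm42048 had none. Among lncRNA genes Gm38424 followed at 18.2 (chromosome 5, 31596592 to 31597090), a predicted lncRNA whose nearest coding gene, Mrpl33, lay 16.9 kb away. 0610039H22Rik had 12.5 (chromosome 11, 88618690 to 88619068), inside the span of the RNA-binding protein gene Msi2. Malat1, the abundant lncRNA of nuclear speckles, had 12.1, and its peak covered the start of the gene (chromosome 19, 5801707 to 5802839). The next in strength, chosen after their values were seen, were Gm34661 at 11.3 on chromosome X, 53.2 kb from the helicase gene Ddx3x, and Gm36111 at 10.1 (chromosome 11, 119191823 to 119192138), inside the span of Tbc1d16. A530013C23Rik, also chosen after its values were seen, had 6.29 in a peak inside the span of Cebpb, which encodes a C/EBP partner of ATF4 and had no peak assigned to it (chromosome 2, 167689941 to 167690298).

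In all, 22 of the 33 strong lncRNA peaks had no known coding start within 1000 bp on the other strand. Such peaks made up 165 of the 254, so their share among the strong ones was like that among all lncRNA peaks. For 17 of the 165, a coding gene of unknown strand lay near the lncRNA start, as at the strong peaks of Gm35399 and 5031425E22Rik. Fold enrichment differed little with a known coding start, with medians of 3.24 over 89 peaks that had one and 3.26 over 165 that had none. Curated and predicted transcripts had medians of 3.22 over 144 peaks and 3.42 over 110 peaks.

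Several lncRNAs with known roles had promoter peaks. Of 29 such genes in a list, 11 had one, or 37.9%, beside 1.85% of the 12731 lncRNA genes of the gene table. Whether these genes are expressed in the cells was not measured. The list was written with earlier results of these data known, and Cytor was not found in the gene table.

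Malat1 and its neighbour Neat1, the lncRNA that builds paraspeckles, both had broad peaks. The Neat1 peak had a fold enrichment of 7.20 over 2517 bp (chromosome 19, 5843148 to 5845664), with the summit 26 bp downstream of the start, and the Malat1 summit lay 37 bp downstream of its own. Another broad peak in the same stretch, of 2121 bp and 8.16, was assigned to Mascrna, the small cytoplasmic RNA that is cut from the end of Malat1 (chromosome 19, 5794335 to 5796455). Malat1 had 2 weaker peaks between, at 2.43 and 2.58, farther than 1 kb from its start. Thus the summits of Malat1 and Neat1 were at their starts, while the Mascrna summit lay 675 bp downstream of the listed Mascrna start.

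Trp53cor1, known as lincRNA-p21, had 8.18 over its start (chromosome 17, 29078883 to 29079223), 11.8 kb from the span of the cell cycle inhibitor gene Cdkn1a. Lncpint, a p53-induced lncRNA, had 6.76 with its summit 63 bp inside the transcript (chromosome 6, 31218156 to 31218672) and a second peak at 3.68. Lockd, which lies downstream of the cell cycle inhibitor gene Cdkn1b and was chosen after its values were seen, had 7.24 and 3.22, with peaks 2.69 and 3.45 kb from the span of Cdkn1b. The list also gave each of Cdkn1a and Cdkn1b at least 1 peak of their own.

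Among X-linked genes, Xist, the RNA that silences the X chromosome, had 4.77 with its summit 3 bp from the start (chromosome X, 103483146 to 103483329). Flicr, an lncRNA that lies beside Foxp3 and is known in mice to modulate it, had 4.09 (chromosome X, 7572513 to 7572986). The nearest edge of this peak was at -614 bp from the start of Flicr, and its summit at -875 bp. The peak lay inside the span of Ppp1r3f, a coding gene on the other strand whose strongest own peak had 3.16. It was 6.69 kb from the span of Foxp3. Flicr had 2 other peaks farther than 1 kb from its start, at 3.30 and 3.41, the second of them in an intron of Ppp1r3f. Dancr had 3.45, and Dleu2, the host of a microRNA cluster, had 2.80 and 2.19. Ftx had peaks only beyond 1 kb, and no peak was assigned to the other 17 listed genes, among them Meg3, H19, Kcnq1ot1, Pvt1, Norad, Tug1 and Morrbid.

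Several listed snoRNA host genes had promoter peaks as well. This list too was written with earlier results of these data known. Its share is not ranked against that of the lncRNAs with known roles, since some genes stand in both lists. The lists of coding genes, given further below, are not compared here either, since members are assigned to noncoding transcripts. Host genes carry snoRNAs in their introns, and many share the start sequence type of ribosomal protein genes. Of 19 host genes listed, 10 had a promoter peak, or 52.6%, beside the same 1.85% of all lncRNA genes. The highest were Zfas1 at 5.26, Snhg1 at 5.13, Snhg12 at 4.70 and Gas5, a growth arrest transcript, at 4.66. The Zfas1 peak also covered the start of the coding gene Znfx1 on the other strand. Its summit was nearer to that start, at 222 bp, than to the start of Zfas1, at 303 bp, so position does not assign it to Zfas1 alone. Snhg8 had 4.55 and a second peak at 2.66, and Snhg3 had 4.02. Snhg6, Snhg7 and Snhg5 had 3.75, 3.61 and 3.54, and Epb41l4aos had 2.84. All of these values lay under 5.34, so none of the 10 was among the 455 strongest, while the median of their 11 peaks was 4.02 in fold enrichment and 21.99 in −log10 q, beside 3.25 and 6.63 for all lncRNA peaks. The summits lay close to the starts: 10 of the 11 peaks overlapped the start, and apart from Zfas1, at 303 bp, and the second Snhg8 peak, at 308 bp, they lay 8 to 61 bp from it. No peak was assigned to the other 9 host genes, which were Snhg4, Snhg9, Snhg10, Snhg14, Snhg15, Snhg16, Snhg17, Snhg18 and Snhg20. Gas5, Zfas1 and Epb41l4aos stand in both lists.

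**Figure D2:**
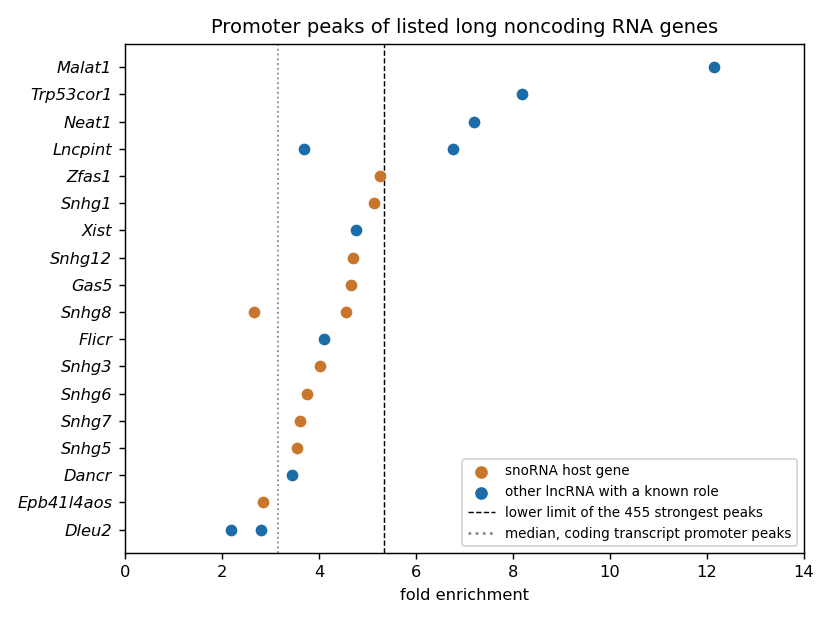
Fold enrichment of the promoter peaks of lncRNA genes with a known role and of snoRNA host genes; each point is 1 peak, and genes with 2 points had 2 peaks within 1 kb. Malat1, Trp53cor1, Neat1 and Lncpint pass the dashed line at 5.34, the lower limit of the 455 strongest peaks, while every snoRNA host gene lies left of it; the dotted line is the median of coding transcript peaks, 3.16.

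Summits at lncRNA starts were more spread than at coding starts. Of the lncRNA peaks, 57.1% overlapped the start of their transcript (50.7 to 63.3), beside 67.4% of coding transcript peaks (65.6 to 69.2) and 66.5% of all promoter peaks within 1 kb. The summit lay within 100 bp of the start in 44.1% of lncRNA peaks and 55.8% of coding transcript peaks. It lay upstream of the start in 44.9% of lncRNA peaks and 32.7% of coding transcript peaks, and the median summit was 20 bp downstream at lncRNA genes and 41 bp downstream at coding transcripts. The spread differed with the kind of transcript: 97 of 144 peaks at curated transcripts overlapped the start, or 67.4% (59.1 to 74.9), and 48 of 110 at predicted ones, or 43.6% (34.2 to 53.4). How well the starts of predicted transcripts are mapped was not tested.

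**Figure D3:**
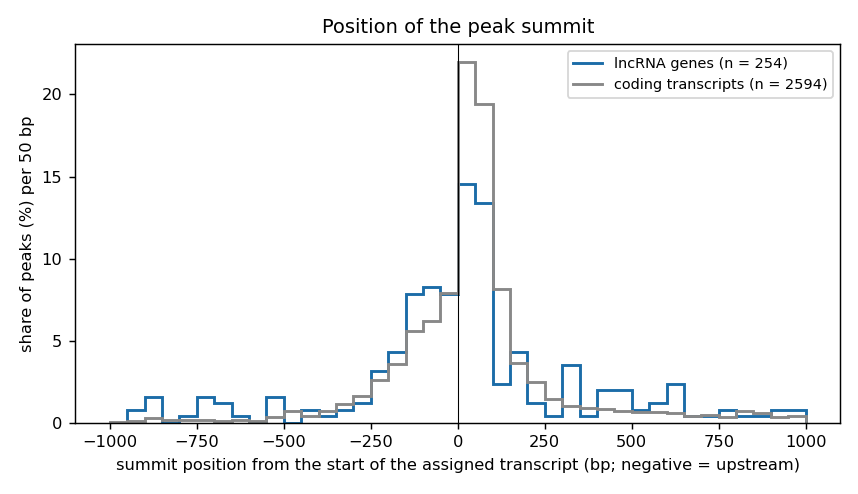
Position of the peak summit relative to the start of the assigned transcript, in bp (negative values upstream), as the share of peaks per 50 bp, for 254 lncRNA peaks and 2594 coding transcript peaks. Both outlines are highest just downstream of the start, and the lncRNA outline is lower there and mostly higher between -150 and -50 bp; 14 lncRNA and 50 coding transcript summits lie beyond 1000 bp and are not drawn.

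A coding gene often began beside the lncRNA. Of the 254 lncRNA peaks, 89 had a coding start on the other strand within 1000 bp of the lncRNA start, or 35.0% (29.2 to 41.3). The share was 9.14% (8.06 to 10.3) for coding transcript peaks and 16.7% (10.5 to 24.6) for the 120 coding symbols with a noncoding transcript. It was not counted over all lncRNA genes. Whether 35.0% is particular to lncRNAs with a peak is therefore unknown. Starts and strands were known for 82.3% of coding genes. For 17 further lncRNA peaks, the lncRNA start lay within 1000 bp of either boundary of a coding gene whose strand was not known here. Such a boundary may be a start on the other strand, so the share of 35.0% may be too low. In 54 pairs the coding start was upstream of the lncRNA start, so that the 2 transcripts diverge, with a median distance of 116.5 bp. In 35 pairs the coding start was level with the lncRNA start or downstream of it, so that the 2 transcripts overlap. Among coding transcript peaks, 210 of 237 pairs were of the first kind and 27 of the second. Pairs were counted by peak, so some genes recur. Gm38599 and Laptm5 stand in both kinds, and 0610039K10Rik and Serinc3 stand 2 times in the second.

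Many of these peaks could not be assigned to a single gene by position. Of the 89, 42 overlapped both starts, or 47.2%, beside 69 of the 237 coding transcript pairs, or 29.1%. Another 26 overlapped the lncRNA start alone, and 21 overlapped neither. None overlapped the coding start alone, since such a peak would have been assigned to the coding gene. The summit was nearer to the other gene's start in 30 of the 89 lncRNA pairs, or 33.7%, and in 47 of the 237 coding transcript pairs, or 19.8%. By the peak centre, the counts were 22, or 24.7%, and 38, or 16.0%. The signed gap between the starts, negative where transcripts overlap, had a median of 37 bp in the lncRNA pairs and 174 bp in the coding transcript pairs. These medians are not distances: 35 of the 89 lncRNA gaps and 27 of the 237 coding transcript gaps were 0 or less. By the nearest peak edge the coding start was nearer in none of the 89, which follows from the assignment itself, since each peak goes to the gene whose start is nearest to its edge. The median distance of the summit was 88 bp to the lncRNA start and 132 bp to the coding start. The same rule picked these peaks, so the medians cannot show which start is favoured.

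The 89 peaks faced 87 coding genes, and 20 of these, or 22.99%, had a peak assigned to them anywhere in the list, beside 12.9% of all 21900 coding genes. A promoter peak was assigned to 19, or 21.8%, beside 11.3% of all coding genes. The other 67, or 77.0%, had no peak under their own symbol, beside 87.1% of all coding genes. Whether ATF4 at such a peak acts on the lncRNA, on the coding gene or on neither was not measured.

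The 4 pairs with the strongest peaks, chosen after their values were seen like the other pairs named here, were all divergent. Of all 89 pairs, 54 were divergent. Gm30375 and Lbh, which encodes a transcription cofactor, lie 150 bp apart, and the peak of 9.99 covered both starts with its summit 34 bp from that of Lbh (chromosome 17, 72917984 to 72918848). 0610009L18Rik and the gamma-actin gene Actg1 lie 183 bp apart, and the peak of 9.69 had its summit 25 bp from the start of Actg1 (chromosome 11, 120347598 to 120348824). 4921531C22Rik and Taf4, a subunit gene of the general factor TFIID, lie 207 bp apart, and there the peak of 8.78 had its summit 51 bp from the lncRNA start and 258 bp from that of Taf4. Gm51804 and Srgn, the serglycin gene, lie 47 bp apart, and the peak of 8.68 covered both starts. Lbh, Actg1 and Taf4 had no peak assigned to them, and Srgn had 1 at 2.88.

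Further down, the peak at 0610039K10Rik, which begins beyond the start of Serinc3 so that the transcripts overlap, had 6.39 and covered neither start. Those at Gm35880 across from Klf7, at 6030442K20Rik across from Rbbp5 and at Gm36279 across from the mRNA decay gene Zfp36l2 had 6.07, 5.81 and 5.62. Gm38599 across from Laptm5, Gm16998 across from Man1a and Gm33712 across from the polycomb gene Phc2 had 5.57, 5.54 and 5.49. The summits at Zfp36l2, Laptm5 and Man1a lay 40, 23 and 31 bp from the coding start. Those at Klf7, Rbbp5 and Serinc3 lay 509, 264 and 2007 bp from it and were nearer the lncRNA start, at 331, 39 and 1714 bp. Over all 89 pairs, 30 summits were nearer the coding start. Gm20337 across from the splicing factor gene Srsf5 and 6030443J06Rik across from the replication origin gene Orc5 had 5.18 each. Of the 11 pairs among the 455 strongest peaks, 10 were divergent and 1 was overlapping. Of all 89 pairs, 54 were divergent and 35 overlapping, and their median fold enrichments were alike, at 3.23 and 3.26.

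The other 3 lists, all of coding genes and written with earlier results of these data known, gave 1 member. It was Slc1a5, a glutamine transporter gene, with 4.74 over the start of a predicted noncoding transcript (chromosome 7, 16781317 to 16781492). That is 1 of 40 canonical ATF4 targets, or 2.50%, and none of 21 cytosolic aminoacyl-tRNA synthetases or 32 core genes of regulatory T cells, beside 0.548% of all coding genes, so that counts this low carry no information on the lists. No gene of the 3 lists was among the 87 coding neighbours, and with so few neighbours that count says nothing about them. Counting every peak of the deposited list, 30 of the canonical targets had one, or 75%, as did 14 of the synthetase genes, or 66.7%, and 17 of the core genes of regulatory T cells, or 53.1%, beside 12.9% of all coding genes. The cell type itself could not be checked against marker expression, which was not measured.

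**Figure D4:**
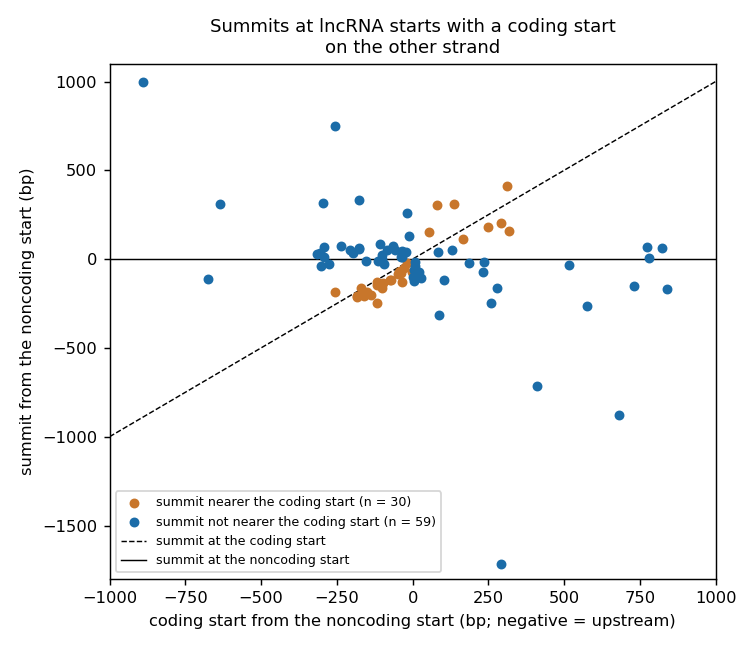
The 89 lncRNA peaks with a coding start on the other strand within 1000 bp: position of the coding start (x axis) and of the peak summit (y axis), both in bp from the lncRNA start, with negative values upstream. Points on the solid line have the summit at the lncRNA start and points on the dashed line at the coding start; the 30 orange summits are nearer the coding start, the 59 blue ones are not.

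The composite element was in few promoter windows, at lncRNA genes as elsewhere. RefSeq windows of 300 bases whose start lay within 100 bp of the assigned start were found for 195 of the 254 lncRNA peaks, which gives 181 different windows. The motif TGATGNAA, on either strand, was in 5 of the 181, or 2.76% (0.903 to 6.33), beside 3.37% of the 1692 windows of coding transcript peaks, 4.64% of all 11588 windows of lncRNA genes and 3.97% of all 32851 windows. Among the 455 strongest peaks it was in 2 of 24 lncRNA windows, or 8.33% (1.03 to 27.0), and in 21 of 178 coding transcript windows, or 11.8% (7.45 to 17.5). The AP-1 motif TGANTCA was in 10 lncRNA windows, or 5.52% (2.68 to 9.93), beside 4.96% of coding transcript windows, 9.31% of all windows of lncRNA genes and 7.81% of all windows. The palindrome TGACGTCA was in 3 lncRNA windows, or 1.66% (0.343 to 4.77), beside 4.26% of coding transcript windows, 0.975% of all windows of lncRNA genes and 1.79% of all windows. The windows start 250 bases upstream and hold only part of most peaks, so a window without a match leaves the rest of the peak unread.

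Gm38424 and Gm36111 were the strong lncRNA peaks with the composite element in their window, and in both it lay beside the summit. The single copy at Gm38424 reads TTGCATCA, the other strand of TGATGCAA, begins at -118 bp from the start, and has its centre 8.5 bp from the summit of the peak of 18.2. Gm36111 had 3 copies, which begin at -158, -17 and 40 bp from the start. The last, TTACATCA, has its centre 7.5 bp from the summit of the peak of 10.1, and TGATGCAA lies 64.5 bp from it. The other 3 lncRNAs with a copy, Gm30211, Gm20234 and Gm19897, had peaks of 4.74, 4.64 and 2.05, with the motif 1227.5, 890.5 and 64.5 bp from the summit. Thus the nearest copy lay within 50 bp of the summit in 2 of 5 lncRNA peaks, or 40%. For coding transcript peaks with a copy it did so in 25 of 63, or 39.7%.

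The cAMP response element stood at 3 lncRNAs. In Gas5 it begins at -46 bp from the start, with its centre 73.5 bp from the summit of the peak of 4.66, and Gas5 diverges from Zbtb37 at 317 bp. In 6030443J06Rik it begins at -13 bp from the start, with its centre 107.5 bp from the summit, which lay 42 bp from the start of Orc5. The third was Gm34086, at 2.96. Where the summit and 50 bp on each side of it could be read within a window, in 69 of 254 lncRNA peaks, TGATGNAA was in 1, or 1.45% (0.0367 to 7.81), beside 19 of 542 coding transcript peaks, or 3.51%. TGACGTCA was in 0 of the 69 (0 to 5.21), beside 8 of the 542, or 1.48%.

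The windows of bound lncRNAs were rich in CpG. The median ratio of observed to expected CpG was 0.804 in the 181 lncRNA windows and 0.827 in the windows of coding transcript peaks, beside 0.245 in all 11588 windows of lncRNA genes and 0.567 in all windows of coding genes. The median GC content of the same windows was 62.0% at lncRNA peaks, 63.0% at coding transcript peaks and 48.3% over all lncRNA windows. Within the lncRNA peaks the CpG ratio split with the coding neighbour. It was 0.910 in 76 windows with a coding start on the other strand (quartiles 0.850 and 0.980). In 105 windows with no such start known it was 0.560 (quartiles 0.230 and 0.860). Windows of lncRNAs among the 455 strongest peaks had a median of 0.689, and the others 0.813.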

How the data were processed

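Trim Galore, Bowtie2, MACS2 and deepTools, with build mm10, are named per the submitters' processing notes. No source used here gives tool versions, the pooling of replicates or the use of the inputs. The fold enrichment at the summit, −log10 p, −log10 q and score of each peak were deposited by the authors in MACS2's form, and the transcript, class and distance in ChIPseeker's. Starts were counted from 0 and raised by 1, which recovered the deposited distance in 4544 of 4544 peaks. Gene types came from the RefSeq gene table and starts, strands and sequences from the RefSeq promoter table, both of GRCm38.p6, with starts of coding transcripts in the peak list added. All 408 symbols were found. Tables were handled in Python 3.11.15 with pandas 2.3.3 and numpy 2.4.6, intervals came from scipy 1.17.1, and plots from matplotlib 3.10.9. The searches for starts and motifs were checked on simulated data. The members and gene lists were chosen with earlier results of these data known. Named genes were the 15 strongest members that are not coding genes, the 8 strongest coding symbols, members of the lists of known lncRNAs and snoRNA hosts, coding neighbours of the first and of list genes, and the 5 members with the highest −log10 q. Others are named as chosen after their values were seen.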

Additional observations from a re-analysis of the deposited data

How the results depend on the processing

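Of 28 alternatives, 21 were counted as leaving the value unchanged, and 7 were not. The limit was the 95% interval of the value reported for all 427 peaks, except for the snoRNA host genes. Their count has no such interval and stayed at 10 with −log10 q of at least 3, so it was counted among the 21. The median fold enrichment of 3.27 became 3.45 with −log10 q of at least 3, where that of coding transcript peaks became 3.38. The share among the 455 strongest peaks was 19.9% without coding symbols and 10.3% without snRNA genes. The share with a coding start on the other strand, 26.5% over all 427 peaks, was 35.0% for lncRNA genes alone. With peak edges in place of centres, 22.1% of paired peaks nearer the coding start became 0%, as the assignment rule requires. The share of windows with the composite motif, 3.53%, was 1.18% for TGATGCAA alone and 0.980% round the summit, where 102 peaks could be read. Beyond the change in which peaks, windows or letters were counted, the cause was not tested. Alternatives on gene classes from the gene table, on summits, on starts from the promoter table alone and on −log10 q for the snoRNA host genes were chosen after seeing the data. Whole peak sequences were not run, since no genome was used. No paired analysis was possible because the list holds no values per sample. Without values per sample or read totals, precision and replicate error are unknown.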
